A study of Mus musculus with 12 samples.

Results

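Glycolysis genes and targets of the transcription factor HIF1 were followed across 4 groups of mouse bone marrow-derived macrophages (BMDMs). The members were a fixed list of 38 gene symbols, matched to the gene identifiers of the count table through the GENCODE annotation of GRCm38, among 48526 genes in the table. The list was chosen with earlier results of these data known, so member counts set beside shares of all genes are descriptions. Of the 38, 37 members passed the filter on low counts, out of 15523 genes tested in all, and Pdk4 did not. By role, the list held 2 glucose transporters, 3 hexokinases, 6 genes of upper glycolysis, 9 of lower glycolysis, 3 of lactate formation and transport, 4 HIF factors and hydroxylases, and 11 other HIF1 targets.

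Total RNA was sequenced from BMDMs of mice homozygous for a deletion of HSS9, an enhancer upstream of Tnf (KO), and of HSS9+/+ mice (WT). Cultures of both genotypes received either PBS (UT) or lipopolysaccharide (LPS), a component of the bacterial cell wall, over 6 hr, and each of the 4 groups (WT UT, WT LPS, KO UT and KO LPS) had 3 libraries. All groups shared the culture of bone marrow for 6 d in medium with L929-conditioned supernatant, and the deletion was carried in the germline, not in macrophages alone. By the methods of the study, all mice were male and 7 to 10 weeks old, C57BL/6 mice were purchased and the KO mice were bred from homozygous pairs, whereas the labels call the WT mice littermates. If the KO mice came from a colony of their own, colony and genotype cannot be told apart in any comparison of KO with WT. No source says whether the libraries of a group came from separate mice, so p-values measure only the spread between these libraries.

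Glycolysis splits glucose into pyruvate, which lactate dehydrogenase turns into lactate for export by monocarboxylate transporters. HIF1 pairs the alpha subunit encoded by Hif1a with Arnt, and in normal oxygen prolyl hydroxylases (the Egln genes) mark the alpha subunit for degradation through Vhl. When the alpha subunit is stable, HIF1 binds the core letters ACGTG or GCGTG near genes of glucose uptake, glycolysis and pyruvate control, and macrophages stimulated with LPS are known for raised glycolysis and Hif1a transcription.

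The promoters of 5 members that recur below are printed to show where these letters lie, since the genes either rose most with LPS or responded differently in KO. Each is the stretch of 250 bases before the RefSeq start, in build GRCm38.p6, 5′ to 3′ on the strand of the gene, with capitals at every ACGTG or GCGTG read on either strand. CACGTG, the E-box that other factors such as Myc also bind, holds ACGTG on both strands and counts as 2 matches. The positions are chr12:73907617-73907866 (plus strand) for Hif1a, chr4:119108495-119108744 (plus strand) for Slc2a1, chr2:11502091-11502340 (minus strand) for a window of Pfkfb3, chr7:46845554-46845803 (plus strand) for a window of Ldha and chr8:45999851-46000100 (minus strand) for Ankrd37.
Hif1a: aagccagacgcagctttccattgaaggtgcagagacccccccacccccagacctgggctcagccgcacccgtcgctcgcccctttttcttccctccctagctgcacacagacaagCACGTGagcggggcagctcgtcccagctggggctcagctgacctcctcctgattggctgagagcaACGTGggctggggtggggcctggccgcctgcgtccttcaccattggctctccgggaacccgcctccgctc
Slc2a1: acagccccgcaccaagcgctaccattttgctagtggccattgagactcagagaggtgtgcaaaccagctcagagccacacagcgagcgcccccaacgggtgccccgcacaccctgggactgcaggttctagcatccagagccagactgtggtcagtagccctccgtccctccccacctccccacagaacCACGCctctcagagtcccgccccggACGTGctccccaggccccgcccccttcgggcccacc
Pfkfb3: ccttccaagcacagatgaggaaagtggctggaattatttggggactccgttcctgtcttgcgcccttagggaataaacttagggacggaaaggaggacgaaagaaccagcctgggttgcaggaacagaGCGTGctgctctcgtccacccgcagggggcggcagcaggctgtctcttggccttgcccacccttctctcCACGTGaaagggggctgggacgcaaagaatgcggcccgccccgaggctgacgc
Ldha: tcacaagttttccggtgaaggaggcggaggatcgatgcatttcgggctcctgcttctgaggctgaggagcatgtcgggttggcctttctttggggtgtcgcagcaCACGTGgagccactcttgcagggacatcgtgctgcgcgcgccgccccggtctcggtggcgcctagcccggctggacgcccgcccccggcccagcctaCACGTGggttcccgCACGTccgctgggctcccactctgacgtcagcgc
Ankrd37: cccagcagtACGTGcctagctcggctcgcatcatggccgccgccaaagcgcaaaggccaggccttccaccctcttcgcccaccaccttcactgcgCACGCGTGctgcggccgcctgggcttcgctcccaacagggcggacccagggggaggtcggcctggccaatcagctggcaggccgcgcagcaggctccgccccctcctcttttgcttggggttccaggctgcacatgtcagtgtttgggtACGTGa

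In RefSeq windows of 300 bases (250 before and 50 after the start), 36 of the 38 members were matched, with 50 windows in all, and Epas1 and Ndrg1 were not matched. ACGTG or GCGTG occurred in 41 of these windows (82%), against 43.8% of all 32851 windows and 49.3% of the windows of protein-coding genes. Member windows were also richer in CG, with a median of 20.5 CG dinucleotides against 7.0 in all windows, and each motif contains CG. The stretches printed hold 5 matches for Ldha, 4 for Ankrd37, 3 each for Hif1a and Pfkfb3 and 2 for Slc2a1. The 50 bases after the start, not printed, bring Ldha to 7 and Pfkfb3 to 4. The other RefSeq window of Ldha and that of Pfkfb3, also not printed, hold only 1 match each before the start. Of the matched members, 33 had the letters in at least 1 window, and Gpi1, Tpi1 and Eno2 had none. Vegfa and Pfkfb4, which fell with LPS in WT, had them as well. A match of letters in such a window is a description and was not linked to binding here.

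Library totals ranged from 26154533 to 36423921 counts. CPM here stands for counts scaled to a common library size by TMM. A call needed an absolute log2 fold change over 1 together with an edgeR adjusted p under 0.05, the study's own criteria, whereas rose, fell, higher and lower at any fold refer to the adjusted p alone. Tnf was lower in KO by 0.66 on the log2 scale in UT cells (edgeR adjusted p = 1.29e-06) and by 1.04 with LPS (edgeR adjusted p = 2.76e-10), in the direction of the labels. Summed macrophage markers reached 27900 to 34400 CPM, against 20.5 to 79.6 CPM for neutrophil markers and at most 28.5 CPM for stromal, T cell, B cell and dendritic cell markers. The share of counts on short noncoding genes was 3.28% to 3.54% in WT UT, 6.96% to 8.19% in KO UT, 4.24% to 7.15% in WT LPS and 3.43% to 3.59% in KO LPS. This share thus separated the genotypes in both treatments, in opposite directions, and it was also entered as a covariate in each comparison.

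The first question was how LPS moved glucose use and HIF1 targets in each genotype. In WT cells, 24 members were called higher and 4 lower, of 37 tested, against a background of 19.1% of all tested genes higher and 18.7% lower. KO cells gave 24 higher and 3 lower calls among the members, and the background was 17.7% and 19.3%. The median log2 fold change of the members was 1.60 in WT and 1.51 in KO, against 0.05 and -0.06 over all genes tested. The members called higher in both genotypes included both glucose transporters, all 3 hexokinases, several enzymes of the pathway, both lactate transporters and Hif1a itself, whereas Vegfa, Epas1, Ndrg1 and, in WT, Pfkfb4 were called lower. Markers of other cells moved with LPS as well. In WT the neutrophil markers summed to 20.5 to 22 CPM in UT and 50.5 to 79.6 CPM in LPS-treated cells, with S100a8 (2.84) and Camp (4.25) called higher and 2 of 6 tested called lower, and Ly6g at 0. Stromal markers summed to 4.58 to 5.21 and 21.8 to 23.9 CPM, with Pdgfrb called higher (4.36) and Col1a1 called lower (-1.32). In KO the neutrophil sums were 42.6 to 48.1 and 67.3 to 76.8 CPM, with 2 of 6 tested called higher and 4 lower. The stromal sums in KO were 4.73 to 6.59 and 26.5 to 28.5 CPM, with 3 of 5 tested called higher and 0 lower. Macrophage sums stayed between 27900 and 34400 CPM, of which Lyz2 alone held 18100 to 28000 CPM. Of the 8 macrophage markers, 3 were called higher and 1 lower in each genotype. Mertk was called lower in WT (-2.35) and KO (-2.47). Cd14 (2.68 and 2.16), Fcgr1 (2.61 and 2.88) and Itgam (1.16 and 1.38) were called higher in WT and KO. The part of these markers in the LPS response was not tested. In the data of bulk cultures, fewer cells of a kind and less RNA per cell cannot be told apart.

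**Figure D1:**
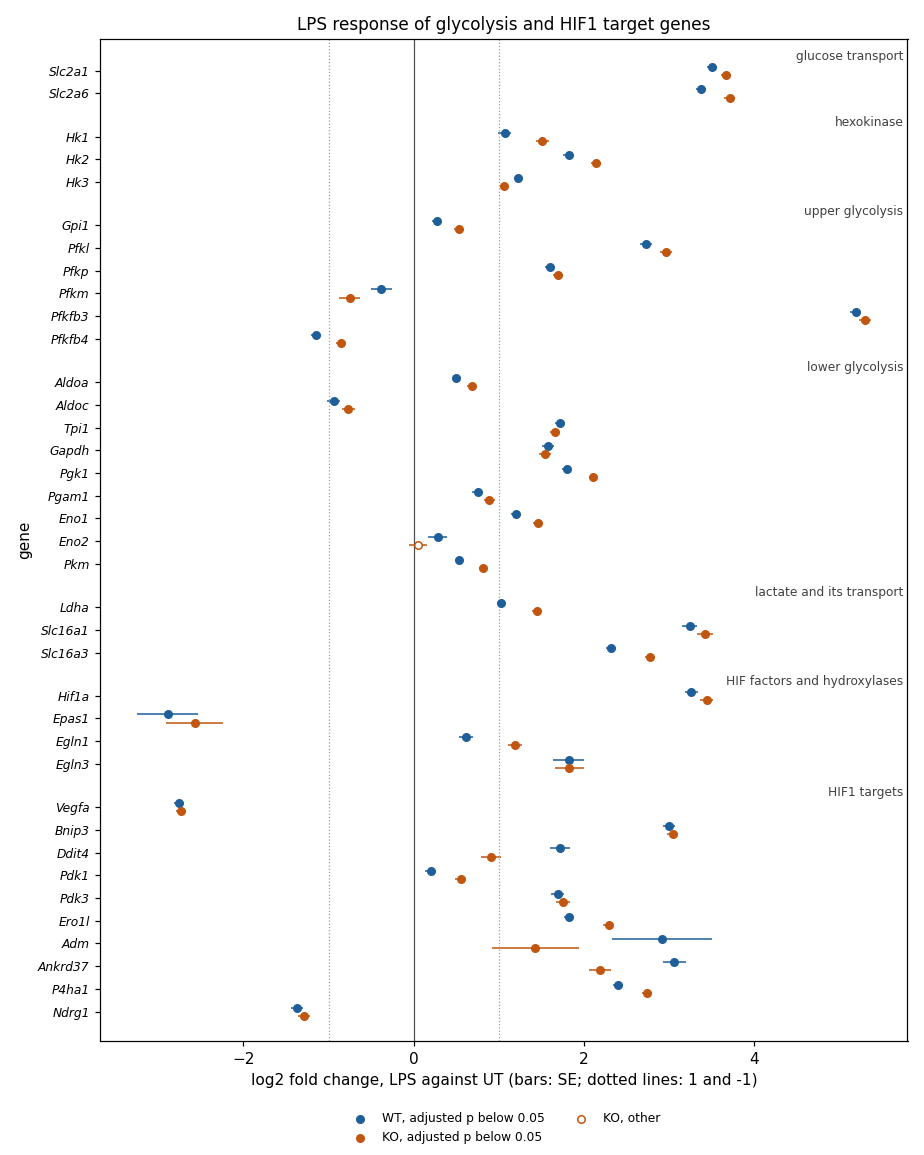
The log2 fold change of LPS against UT (x axis) for the 37 tested members (y axis, by role), in WT and KO, with SE as bars, filled points for an adjusted p below 0.05 and dotted lines at 1 and -1. Pfkfb3 lies farthest to the right at 5.19 in WT and 5.30 in KO, and Epas1 and Vegfa lie farthest to the left.

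Both glucose transporters of the list rose. Slc2a1, the transporter GLUT1 of basal glucose uptake, stood at 25.5, 26.5 and 25.5 CPM in WT UT, 23.9, 25.5 and 24.4 CPM in KO UT, 303, 287 and 286 CPM in WT LPS and 314, 311 and 311 CPM in KO LPS. Its log2 fold change with LPS was 3.50 ± 0.0576 (SE) in WT (edgeR adjusted p = 2.44e-22) and 3.67 ± 0.0584 in KO (edgeR adjusted p = 1.3e-22). UT and LPS libraries were far apart for this gene, and the genotypes lay close together within each treatment. Slc2a6, a transporter of the same family found on lysosomes, stood at 109, 105 and 107 CPM in WT UT, 85.5, 79.6 and 78.5 CPM in KO UT, 1034, 1144 and 1150 CPM in WT LPS and 1063, 1087 and 1030 CPM in KO LPS. With LPS it changed on the log2 scale by 3.37 ± 0.0591 in WT (edgeR adjusted p = 5.73e-22) and 3.71 ± 0.0602 in KO (edgeR adjusted p = 1.74e-22). The KO UT libraries were all below the WT UT libraries, whereas the LPS libraries of the genotypes overlapped.

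Hexokinases trap glucose in the cell as glucose 6-phosphate, and all 3 members were called higher in both genotypes. Hk2, the inducible form, stood at 55.1, 51.5 and 55.7 CPM in WT UT, 44.7, 47.0 and 41.2 CPM in KO UT, 203, 184 and 187 CPM in WT LPS and 193, 195 and 197 CPM in KO LPS. The log2 response to LPS was 1.82 ± 0.0613 in WT (edgeR adjusted p = 5.29e-17) and 2.14 ± 0.0624 in KO (edgeR adjusted p = 4.06e-18). KO libraries were below WT libraries in UT cells, and with LPS they lay within the WT range. Hk1, the widely expressed form, stood at 51.6, 57.05 and 54.2 CPM in WT UT, 44.1, 40.6 and 43.8 CPM in KO UT, 131, 109 and 104 CPM in WT LPS and 124, 114 and 127 CPM in KO LPS. On the log2 scale, LPS moved it by 1.07 ± 0.0746 in WT (edgeR adjusted p = 2.13e-11) and 1.51 ± 0.0759 in KO (edgeR adjusted p = 7.78e-14). The WT value fell to 0.97, just under the call, without the first WT LPS library, and to 0.89 with upper-quartile scaling. Hk3, the form of myeloid cells, rose by 1.23 ± 0.0509 in WT and 1.06 ± 0.0508 in KO on the log2 scale, and its KO value was 0.88, under the call, with upper-quartile scaling.

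The phosphofructokinase step commits sugar to glycolysis, and its members moved in opposite directions. Pfkfb3 makes fructose 2,6-bisphosphate, the activator of phosphofructokinase, and had the largest rise of all members in both genotypes. It stood at 33.99, 36.5 and 38.1 CPM in WT UT, 27.6, 29.4 and 25.2 CPM in KO UT, 1376, 1283 and 1311 CPM in WT LPS and 1069, 1094 and 1079 CPM in KO LPS. Its log2 fold change was 5.19 ± 0.0685 in WT (edgeR adjusted p = 7.56e-24) and 5.30 ± 0.0695 in KO (edgeR adjusted p = 5.94e-24), which is 36.6-fold and 39.5-fold. KO libraries lay below WT libraries in both treatments without overlap. Pfkfb4, a related enzyme of this kind, fell by 1.15 in WT and by 0.86 in KO on the log2 scale. Among phosphofructokinase subunits, the liver form Pfkl rose by 2.73 ± 0.0696 in WT and 2.96 ± 0.0703 in KO, and the platelet form Pfkp by 1.60 ± 0.0589 and 1.70 ± 0.0593, while the muscle form Pfkm fell by 0.38 and 0.75 on the same scale. Gpi1, the isomerase between hexokinase and phosphofructokinase, rose by only 0.27 ± 0.053 in WT and 0.53 ± 0.053 in KO.

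In lower glycolysis, 4 of 9 members were called higher in each genotype, where 19.1% of all genes were in WT and 17.7% in KO. Pgk1, which makes the first ATP of the pathway, stood at 163, 157 and 158 CPM in WT UT, 163, 168 and 168 CPM in KO UT, 569, 576 and 521 CPM in WT LPS and 729, 727 and 694 CPM in KO LPS. With LPS it changed on the log2 scale by 1.80 ± 0.0534 in WT (edgeR adjusted p = 5.71e-18) and 2.11 ± 0.0539 in KO (edgeR adjusted p = 3.91e-19). Every KO LPS library was above every WT LPS library. Tpi1, the triose phosphate isomerase, stood at 162, 159.9 and 169 CPM in WT UT, 226, 210.4 and 220.2 CPM in KO UT, 518, 575 and 523 CPM in WT LPS and 693, 708 and 671 CPM in KO LPS. The log2 response to LPS was 1.72 ± 0.0559 in WT (edgeR adjusted p = 2.94e-17) and 1.66 ± 0.0557 in KO (edgeR adjusted p = 5.11e-17). Every KO library was above every WT library in UT and in LPS-treated cells. Eno1, an enolase, rose by 1.20 ± 0.0549 and 1.46 ± 0.0552, and Gapdh, the dehydrogenase often used as a reference in PCR, by 1.58 ± 0.0726 and 1.54 ± 0.0729, in WT and KO respectively. Pgam1, Aldoa and Pkm, which encode phosphoglycerate mutase, aldolase and pyruvate kinase, rose by 0.50 to 0.89. The aldolase Aldoc fell by 0.94 in WT and by 0.77 in KO, and the enolase Eno2 changed by 0.28 ± 0.11 in WT, with 0.05 ± 0.108 in KO (edgeR adjusted p = 0.67).

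All 3 transcripts of lactate formation and transport on the list rose. Ldha, the lactate dehydrogenase subunit, stood at 218, 219 and 218 CPM in WT UT, 213, 212 and 213 CPM in KO UT, 491, 431 and 419 CPM in WT LPS and 588, 578 and 574 CPM in KO LPS. On the log2 scale, LPS moved it by 1.03 ± 0.0566 in WT (edgeR adjusted p = 3.35e-13) and 1.45 ± 0.0571 in KO (edgeR adjusted p = 9.66e-16). The WT value sat at the call threshold and fell to between 0.85 and 0.99 under DESeq2, other scalings, no filter, a fit of the compared groups or without the first WT LPS library. Slc16a1, the lactate transporter MCT1, stood at 8.23, 11.3 and 9.21 CPM in WT UT, 9.11, 11.3 and 10.1 CPM in KO UT, 95.3, 91.7 and 84.9 CPM in WT LPS and 108, 106 and 114 CPM in KO LPS. Its log2 fold change was 3.24 ± 0.0924 in WT (edgeR adjusted p = 2.79e-18) and 3.42 ± 0.0935 in KO (edgeR adjusted p = 1.23e-18). The UT libraries of both genotypes overlapped, and with LPS the KO libraries were the highest. Slc16a3, the lactate exporter MCT4, stood at 67.5, 64.6 and 62.4 CPM in WT UT, 61.8, 60.8 and 57.03 CPM in KO UT, 313, 327 and 334 CPM in WT LPS and 408, 409 and 411 CPM in KO LPS. With LPS it changed on the log2 scale by 2.32 ± 0.0561 in WT (edgeR adjusted p = 1.45e-19) and 2.77 ± 0.0572 in KO (edgeR adjusted p = 8.68e-21). The KO libraries lay just below the WT libraries in UT cells and well above them with LPS.

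**Figure D2:**
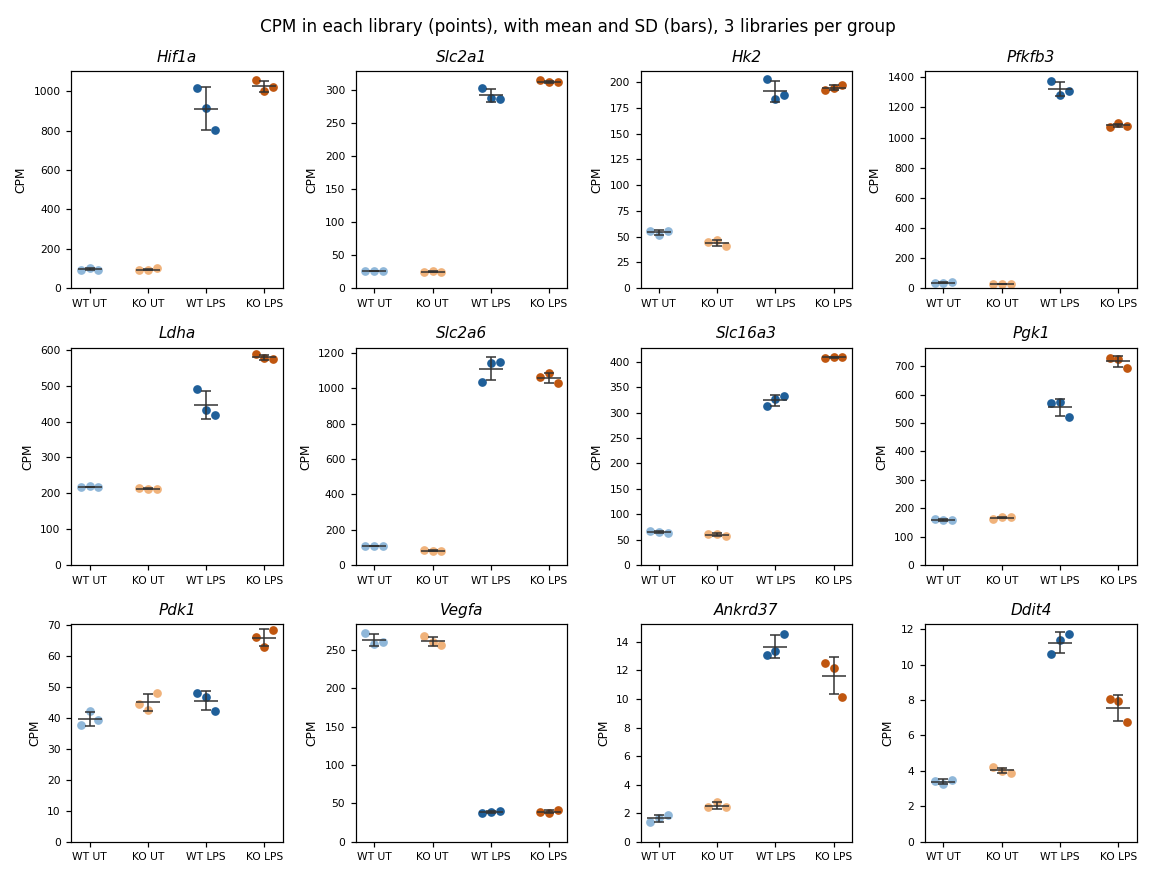
CPM (y axis, from 0) in each library of the 4 groups (x axis) for 12 members, with the mean and SD of 3 libraries as bars. Vegfa falls with LPS from at least 255.8 to at most 41.0 CPM, and the other 11 genes are higher in LPS-treated than in UT cells of the same genotype, with some overlap for Pdk1 in WT.

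Hif1a itself was among the members that rose most. It stood at 90.2, 100 and 94.5 CPM in WT UT, 90.8, 92.9 and 99.8 CPM in KO UT, 1016, 915 and 801 CPM in WT LPS and 1055, 1000 and 1020 CPM in KO LPS. The log2 response to LPS was 3.26 ± 0.0751 in WT (edgeR adjusted p = 6.34e-20) and 3.44 ± 0.0758 in KO (edgeR adjusted p = 2.75e-20). The WT LPS libraries spread widely, and in the order given their short noncoding shares were 4.24%, 5.6% and 7.15%. The part of that share in the spread of Hif1a was not tested. Epas1, the alpha subunit of HIF2, went the other way, from 99 to 157 counts per UT library to 1 to 17 counts per LPS library, with a log2 fold change of -2.89 ± 0.361 in WT (edgeR adjusted p = 2.94e-07) and -2.57 ± 0.335 in KO (edgeR adjusted p = 5.72e-07).

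Both prolyl hydroxylases of the list rose. Egln1, the main oxygen sensor of the family, stood at 24.2, 28.2 and 26.6 CPM in WT UT, 25.5, 26.9 and 22.8 CPM in KO UT, 41.7, 42.5 and 36.1 CPM in WT LPS and 54.1, 55.5 and 61.5 CPM in KO LPS. On the log2 scale, LPS moved it by 0.61 ± 0.0808 in WT (edgeR adjusted p = 7.67e-07) and 1.19 ± 0.0805 in KO (edgeR adjusted p = 1.44e-11), so that it passed the fold threshold in KO only, and the difference itself is tested below. Egln3, a hydroxylase that is itself a HIF target, rose by 1.82 ± 0.186 in WT and 1.83 ± 0.17 in KO from 0.883 to 2.14 CPM in UT libraries.

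Among the other HIF1 targets, 7 were called higher and 2 lower in WT, and 6 higher and 2 lower in KO, of 10 tested. The background was 19.1% higher with 18.7% lower for WT, and for KO 17.7% higher with 19.3% lower, so that the lower calls lay at the share of all genes. Bnip3, a receptor for the removal of mitochondria, stood at 23.02, 21.5 and 20.2 CPM in WT UT, 26.2, 23.97 and 26.2 CPM in KO UT, 180, 178 and 161 CPM in WT LPS and 220.3, 206 and 205 CPM in KO LPS. Its log2 fold change was 3.00 ± 0.0683 in WT (edgeR adjusted p = 5.19e-20) and 3.04 ± 0.0683 in KO (edgeR adjusted p = 3.77e-20). KO libraries were above WT libraries in each treatment. Ankrd37, a small ankyrin repeat protein induced by hypoxia, stood at 1.38, 1.66 and 1.87 CPM in WT UT, 2.43, 2.79 and 2.40 CPM in KO UT, 13.1, 13.4 and 14.6 CPM in WT LPS and 12.5, 12.2 and 10.1 CPM in KO LPS. With LPS it changed on the log2 scale by 3.06 ± 0.137 in WT (edgeR adjusted p = 9.74e-15) and 2.19 ± 0.133 in KO (edgeR adjusted p = 2.15e-12). KO libraries were above WT libraries in UT cells and below them with LPS, and the gene overlaps Ufsp2 and Lrp2bp on the other strand.

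P4ha1, a collagen prolyl hydroxylase subunit, stood at 63.6, 63.2 and 63.1 CPM in WT UT, 60.03, 59.3 and 56.4 CPM in KO UT, 340.1, 339.8 and 322 CPM in WT LPS and 378, 387 and 410.3 CPM in KO LPS. The log2 response to LPS was 2.40 ± 0.0558 in WT (edgeR adjusted p = 7.57e-20) and 2.74 ± 0.0567 in KO (edgeR adjusted p = 9.1e-21). All LPS libraries were above all UT libraries, and the KO LPS libraries were the highest. Ero1l, an oxidase of protein folding, stood at 30.6, 34.4 and 31.9 CPM in WT UT, 26.8, 27.2 and 27.3 CPM in KO UT, 119.9, 114 and 108 CPM in WT LPS and 134, 127 and 136 CPM in KO LPS. On the log2 scale, LPS moved it by 1.82 ± 0.0596 in WT (edgeR adjusted p = 3.28e-17) and 2.29 ± 0.061 in KO (edgeR adjusted p = 8.01e-19). KO was the lower genotype in UT cells and the higher one with LPS.

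Ddit4, an inhibitor of mTOR signalling, stood at 3.42, 3.27 and 3.51 CPM in WT UT, 4.19, 3.995 and 3.89 CPM in KO UT, 10.6, 11.4 and 11.7 CPM in WT LPS and 8.05, 7.92 and 6.73 CPM in KO LPS. Its log2 fold change was 1.72 ± 0.116 in WT (edgeR adjusted p = 1.31e-11) and 0.91 ± 0.119 in KO (edgeR adjusted p = 5.82e-07). Ddit4 reached a lower level in KO with LPS although it was not lower in UT cells. Pdk1, a kinase that closes the entry of pyruvate into mitochondria, stood at 37.6, 42.05 and 39.2 CPM in WT UT, 44.5, 42.5 and 47.9 CPM in KO UT, 48.0, 46.7 and 42.04 CPM in WT LPS and 66.2, 62.96 and 68.4 CPM in KO LPS. With LPS it changed on the log2 scale by 0.20 ± 0.0675 in WT (edgeR adjusted p = 0.0103) and 0.55 ± 0.0663 in KO (edgeR adjusted p = 1.79e-07). The response of Pdk1 was small beside that of Pdk3, a kinase of the same family, which rose by 1.69 ± 0.0785 in WT and 1.75 ± 0.0805 in KO. Pdk4 had 0 to 22 counts per library and was not tested.

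Vegfa, the endothelial growth factor and a standard HIF1 target, fell by 2.76 in WT and by 2.73 in KO on the log2 scale, from 255.8 to 271 CPM in UT libraries to 37.8 to 41.0 CPM in LPS libraries. Ndrg1, a stress response gene induced by hypoxia, fell by 1.37 and by 1.29. Adm, the peptide adrenomedullin, had only 1 to 26 counts per library, and its log2 fold changes of 2.92 ± 0.589 in WT and 1.43 ± 0.507 in KO carry large errors. The KO call of Adm was lost without the third KO UT library (edgeR adjusted p = 0.0724) and without the second KO LPS library (edgeR adjusted p = 0.0754). With the short noncoding share as a covariate its value was 2.85 ± 1.29 (edgeR adjusted p = 0.0695).

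Next, levels were compared between genes per kb of annotated exon, a rough scale since the exon length counts every annotated isoform. Before LPS, the highest member in WT was Aldoa at 174 ± 2.54 CPM per kb (SD, n = 3), followed by Pkm at 168 ± 2.47, with little room between their SDs. Pgk1 at 71.1 ± 1.36, Ldha at 66.0 ± 0.138 and Vegfa at 61.4 ± 1.72 CPM per kb came next. After LPS, Slc2a6 led in WT at 345 ± 20.3 CPM per kb, and Pgk1 at 247 ± 13.2, Aldoa at 246 ± 11.5 and Pkm at 242 ± 7.77 did not differ beyond their SDs. In KO LPS the order began with Slc2a6 at 330 ± 8.92 and Pgk1 at 319 ± 8.88 CPM per kb, whose ranges of 1 SD overlap, ahead of Aldoa at 297 ± 4.99. Pfkfb3 climbed from rank 27 of 38 in WT UT to rank 6 in WT LPS, and Vegfa dropped from rank 5 to rank 26.

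Gapdh stood low on this scale, at 9.32 ± 0.403 CPM per kb in WT UT (SD, n = 3), against 59.5 ± 1.74 for Tpi1 and 71.1 ± 1.36 for Pgk1, the steps on either side of it. Transcripts of other annotated genes contained 25.1% of the 50-base runs of Gapdh transcripts, and this share was 53.9% for Pgk1, 47.2% for Bnip3, 36.2% for Pgam1, 26% for Eno1, 25.8% for Pkm, 17% for Ankrd37 and 15.8% for Gpi1. It was at most 9.26% for the other 30 members. How reads matching several genes were counted is not stated, so the levels of these 8 genes are uncertain.

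**Figure D3:**
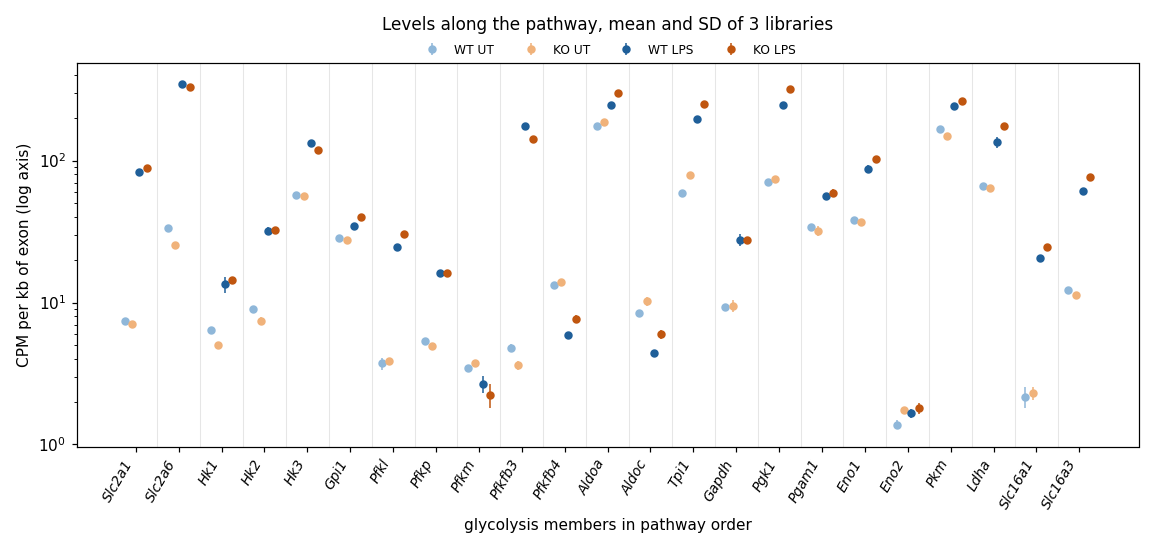
CPM per kb of exon (y axis, log scale) for the glycolysis and transport members in pathway order (x axis), as mean and SD of 3 libraries per group. Gapdh stands below its neighbours Tpi1 and Pgk1 in all 4 groups, and Pfkm, Pfkfb4 and Aldoc are lower in LPS-treated than in UT cells.

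The make-up of several enzyme families shifted with LPS. Of the summed CPM per kb of both PFKFB members, Pfkfb3 held 26.6% ± 1.45 in WT UT and 96.7% ± 0.147 in WT LPS (SD, n = 3), with Pfkfb4 as the rest. The corresponding shares in KO were 20.7% ± 1.06 and 94.9% ± 0.263. Among phosphofructokinases, Pfkl held 29.7% ± 1.91 in WT UT and 56.9% ± 0.425 in WT LPS, and in KO its share moved between 30.9% ± 1.03 and 62.2% ± 0.332. Pfkp led in WT UT with 42.5% ± 0.573 and held 37% ± 1.21 in WT LPS. The share of Pfkm was 27.8% ± 1.41 in WT UT and 6.16% ± 0.872 in WT LPS, while its own level was 3.47 ± 0.0552 and 2.67 ± 0.354 CPM per kb. Hk3 remained the main hexokinase transcript per length, with a mean share between 71.6% and 82% in each group. Epas1 made up 3.18% ± 0.491 of both HIF alpha transcripts in WT UT and 0.0442% ± 0.0411 in WT LPS, with Hif1a as the rest. Egln3 held 5.71% ± 1.46 of both hydroxylases in WT UT, 9.87% ± 0.292 in KO UT, 12.3% ± 0.606 in WT LPS and 14.7% ± 1.22 in KO LPS.

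**Figure D4:**
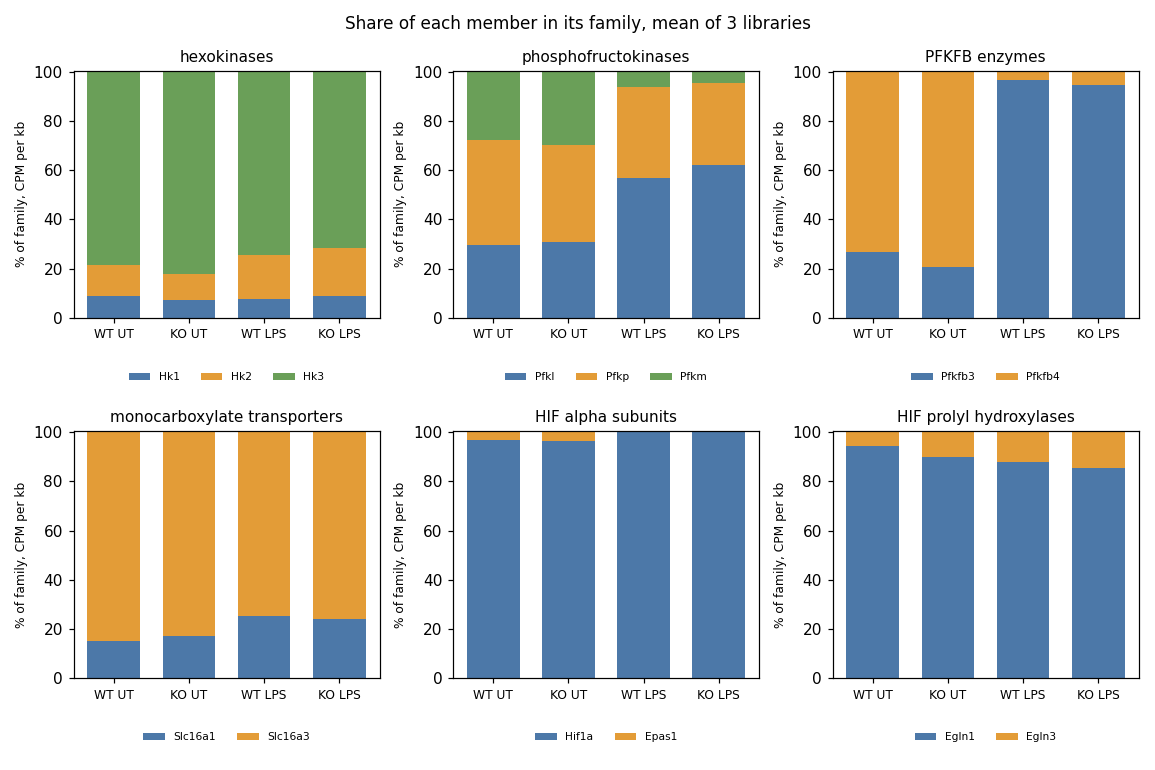
Stacked bars of the share (y axis, percent of the summed CPM per kb) of each member of 6 families in the 4 groups (x axis), as means of 3 libraries. Pfkfb3 takes over from Pfkfb4 with LPS, from 26.6% to 96.7% in WT, and Pfkl passes Pfkp as the largest phosphofructokinase share, at 56.9% against 37% in WT LPS.

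The next question was whether loss of HSS9 moved these genes in UT cells. No member was called (0 of 37 with edgeR, against 1.82% of all genes tested), 15 members had an unadjusted p below 0.05, where 34.3% of all genes did, and DESeq2 called 1 member, Adm. At any fold, 7 members were higher in KO (of all genes tested, 14.1%) and 6 lower (9.69%), and the member median was -0.01. The split depended on scaling, with 4 higher and 10 lower with RLE scaling and 5 higher and 12 lower with DESeq2. The same scalings moved all genes, with 11.1% higher and 17.7% lower under RLE and 11.2% and 18.1% under DESeq2. The lower members were Slc2a6 at -0.40 ± 0.0552 (edgeR adjusted p = 1.62e-05), Pfkfb3 at -0.40 ± 0.0618 (edgeR adjusted p = 4.82e-05), Hk1 at -0.34 ± 0.0754 (edgeR adjusted p = 0.0018), Hk2 at -0.29 ± 0.0613 (edgeR adjusted p = 0.00126), Ero1l at -0.25 ± 0.0609 (edgeR adjusted p = 0.00379) and Pkm at -0.16 ± 0.0457. The KO level was 0.759 of the WT level for Slc2a6, 0.756 for Pfkfb3 and 0.893 for Pkm. Of the higher members, Tpi1 at 0.42 ± 0.0547 had the smallest edgeR adjusted p (8.58e-06), and the others were Egln3 at 0.79 ± 0.192, Ankrd37 at 0.63 ± 0.155, Eno2 at 0.35 ± 0.106, Aldoc at 0.28 ± 0.0723, Bnip3 at 0.24 ± 0.0682 and Pdk1 at 0.18 ± 0.0661. Pdk1 was at the threshold (edgeR adjusted p = 0.0495) and was no longer past it with the replicate number as a block (edgeR adjusted p = 0.0834). Eno2, Pkm, Bnip3, Aldoc and Pdk1 each lost their place without 1 library, at edgeR adjusted p-values between 0.0511 and 0.211. Values of 23 members did not overlap between the genotypes, where 40.8% of all genes tested did not.

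Hif1a showed -0.01 ± 0.0703 in this comparison (edgeR adjusted p = 0.966), Slc2a1 -0.07 ± 0.0565 (edgeR adjusted p = 0.392) and Ldha -0.04 ± 0.0562 (edgeR adjusted p = 0.691). With the short noncoding share of each library as a covariate, 5 members were past the threshold in place of 13, and of all genes 3.75% were higher and 1.53% lower in that fit. The 5 were Slc2a6 at -0.64, Tpi1 at 0.41, Bnip3 at 0.46, Pdk1 at 0.53 and, newly, Hif1a at 0.50 (edgeR adjusted p = 0.00194). Of the 9 that were lost, Pfkfb3 at -0.38, Aldoc at 0.28, Egln3 at 0.83 and Hk2 at -0.23 stayed close to their values without the covariate, Ankrd37 was at 0.38, Eno2 at 0.17, Pkm at -0.09 and Ero1l at -0.04, and the sign of Hk1 turned to 0.11. Since the shares of the UT genotypes do not overlap, that share and the genotype cannot be told apart here. Among neutrophil markers, 4 of 6 tested were called higher in KO UT, with sums of 42.6 to 48.1 CPM against 20.5 to 22 CPM in WT UT, S100a9 at 23.6 to 26.8 CPM against at most 11.7 CPM, and Ly6g at 0 in all 12 libraries. The summed macrophage markers were also higher, at 33300 to 34400 against 28900 to 30000 CPM. The part of these markers in the differences was not tested.

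**Figure D5:**
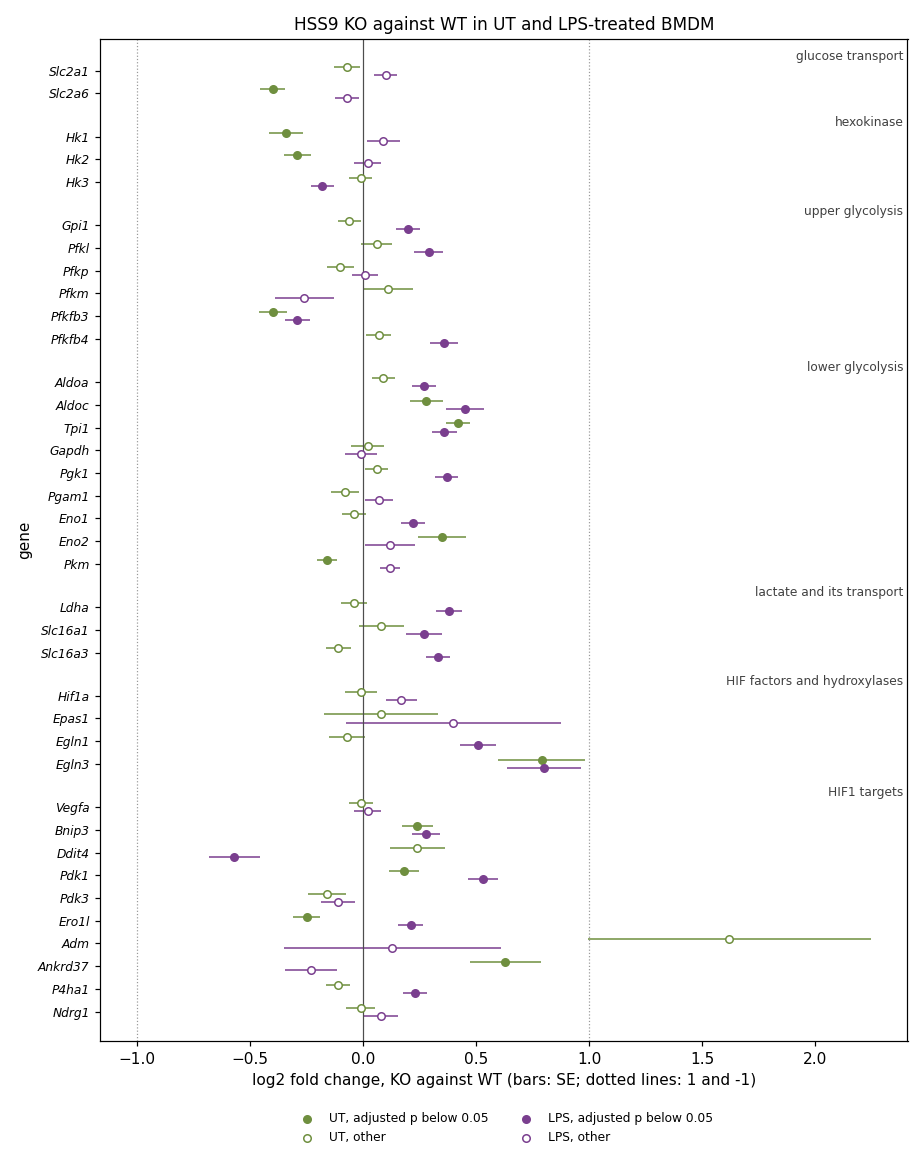
The log2 fold change of KO against WT (x axis) for the 37 tested members (y axis, by role), in UT and LPS-treated cells, with SE as bars, filled points for an adjusted p below 0.05 and dotted lines at 1 and -1. Most points for LPS-treated cells lie to the right of 0, at a median of 0.17, and Ddit4 lies farthest to the left at -0.57.

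After LPS, the genotypes differed in more members and mostly in one direction, by small amounts. No member was called (0 of 37 with edgeR and with DESeq2, against 1.25% of all genes tested), while 22 members had an unadjusted p below 0.05, where 28.5% of all genes did. At any fold, 17 members were higher in KO, where 7.78% of all genes tested were, and 3 were lower, where 6.54% were. The member median was 0.17, against -0.01 over all genes tested, and 23 members did not overlap between the genotypes, where 29.1% of all genes did not. The 17 higher members held all 3 of lactate formation and transport, 5 of 9 of lower glycolysis, 3 of 6 of upper glycolysis, both hydroxylases and 4 of 10 tested HIF1 targets. They held no glucose transporter and no hexokinase.

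By adjusted p, Pdk1 came first at 0.53 ± 0.0676 (edgeR adjusted p = 2.09e-05), so that the transcript of this kinase against pyruvate oxidation stood 1.44-fold higher in KO. Pgk1 at 0.37 ± 0.0517 (edgeR adjusted p = 6.07e-05) and Tpi1 at 0.36 ± 0.0543 (edgeR adjusted p = 0.000135) were the leading glycolysis enzymes. Ldha at 0.38 ± 0.056 (edgeR adjusted p = 0.000119) and Slc16a3 at 0.33 ± 0.0531 (edgeR adjusted p = 0.000224) gave 1.3-fold and 1.26-fold more transcript for lactate formation and export. Egln1 stood at 0.51 ± 0.0799 (edgeR adjusted p = 0.000204) and Egln3 at 0.80 ± 0.165 (edgeR adjusted p = 0.00257), the latter at 7.03 to 7.51 CPM against 3.72 to 4.67 CPM. The other higher members were Pfkfb4, Aldoa, Aldoc, Pfkl, Bnip3, P4ha1, Eno1, Gpi1, Ero1l and Slc16a1, between 0.20 and 0.45. The lower members were Ddit4 at -0.57 ± 0.113 (edgeR adjusted p = 0.00175), Pfkfb3 at -0.29 ± 0.0568 (edgeR adjusted p = 0.00149) and Hk3 at -0.18 ± 0.0502 (edgeR adjusted p = 0.021).

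For Hif1a the difference was 0.17 ± 0.0685 (edgeR adjusted p = 0.102), and it was past 0.05 without the first WT LPS library, as were those of Hk1 and Pkm. Slc2a1 at 0.10 ± 0.0513 (edgeR adjusted p = 0.227), Hk2 at 0.02 ± 0.059 (edgeR adjusted p = 0.832) and Vegfa at 0.02 ± 0.0581 (edgeR adjusted p = 0.883) did not pass. Among the members past 0.05, Hk3, Slc16a1, Ero1l, Gpi1 and Eno1 each lost their place without 1 LPS library, at edgeR adjusted p-values between 0.0503 and 0.121. With the short noncoding share as a covariate, 12 members remained past 0.05, of which 11 were higher in KO, and of all genes 4.13% were higher and 4.46% lower in that fit. Among the 12 were Pdk1 at 0.36, Pgk1 at 0.29, Ldha at 0.24, Tpi1 at 0.36, Slc16a3 at 0.43 and Egln1 at 0.43. The 8 that did not remain were Egln3 at 0.77, P4ha1 at 0.20, Ddit4 at -0.45, Eno1 at 0.16, Hk3 at -0.12, Bnip3 at 0.18, Slc16a1 at 0.14 and Ero1l at 0.11, so that the values of Egln3 and P4ha1 stayed close to those without the covariate. Stromal markers were called higher in KO LPS for 4 of 5 tested, with sums of 26.5 to 28.5 CPM against 21.8 to 23.9 CPM, and Col1a1 at 0.732 to 0.843 against 0.141 to 0.373 CPM. Macrophage markers summed to 30200 to 32100 against 27900 to 29500 CPM, and 5 of 8 were higher in KO at an adjusted p below 0.05, among them Itgam at 0.36, Adgre1 at 0.30 and Fcgr1 at 0.26, as large as many differences of the members. Neutrophil marker sums overlapped at 67.3 to 76.8 and 50.5 to 79.6 CPM, with S100a9 higher in KO at 0.76. The part of these markers was not tested.

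The comparison of the LPS responses themselves asked whether the genotypes responded by different amounts. No member was called in this interaction (0 of 37 with edgeR and with DESeq2, against 2.16% of all genes tested), and 21 had an unadjusted p below 0.05, where 29.1% of all genes did. At any fold, 14 members responded more in KO or fell less, where 7.32% of all genes tested did, and 2 responded less, where 9.5% did. The median was 0.18. Slc16a3 had the smallest edgeR adjusted p (0.000339) with a difference of 0.45 ± 0.0764, followed by Ero1l at 0.47 ± 0.0833 (edgeR adjusted p = 0.000532), Ldha at 0.41 ± 0.0793 (edgeR adjusted p = 0.000995) and Egln1 at 0.58 ± 0.114 (edgeR adjusted p = 0.00114). P4ha1 was at 0.34 ± 0.0758 (edgeR adjusted p = 0.00328). Ddit4 at -0.81 ± 0.166 (edgeR adjusted p = 0.00167) and Ankrd37 at -0.86 ± 0.194 (edgeR adjusted p = 0.00383) were the 2 members with the weaker response in KO. Slc2a6, Hk1, Hk2 and Pkm were lower in KO UT cells and did not pass after LPS, and these comparisons share libraries. The difference was 0.18 ± 0.0981 for Hif1a (edgeR adjusted p = 0.246), 0.17 ± 0.0763 for Slc2a1 (edgeR adjusted p = 0.14) and 0.11 ± 0.0838 for Pfkfb3 (edgeR adjusted p = 0.414). With the short noncoding share as a covariate, 3 members were past 0.05 in place of 16, and of all genes 0.496% were higher and 0.689% lower in that fit. The 3 were Slc2a6 at 0.70, Slc16a3 at 0.73 and, newly and with a turned sign, Hif1a at -0.57 (edgeR adjusted p = 0.0426). Of the 14 that were lost, Gpi1 at 0.35, Pfkfb4 at 0.40, P4ha1 at 0.25 and Hk2 at 0.23 kept differences of similar or larger size, Egln1 was at 0.33, Pkm at 0.17, Ero1l at 0.15, Ddit4 at -0.45 and Ankrd37 at -0.50, Pgk1 and Eno1 were at 0.07, Ldha was at 0.00, and the signs of Hk1 and Pdk1 turned to -0.24 and -0.16.

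As a share of all counts before any scaling, the 38 members took 0.484% to 0.492% in WT UT, 0.423% to 0.439% in KO UT, 0.825% to 0.878% in WT LPS and 0.923% to 0.939% in KO LPS. After TMM scaling, the summed CPM of the glycolysis and lactate members was 3111 to 3191 in WT UT and 3030 to 3172 in KO UT, which overlap. It was 8576 to 8863 in WT LPS and 9327 to 9514 in KO LPS, which do not.

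Other genes of these pathways did not all follow the direction of the members. Of 21 further glycolysis and pyruvate genes, 16 were tested. With LPS in WT, 1 was called higher and 9 lower, where 19.1% and 18.7% of all genes were, and their median was -1.25. Pgm1, which links glycogen to glycolysis, rose by 1.88, whereas Pdk2, a pyruvate dehydrogenase kinase, fell by 3.10, the monocarboxylate transporter Slc16a7 fell by 3.05 and the glucose transporter Slc2a3 fell by 2.57. In KO the same list also had 1 called higher and 9 lower, where 17.7% and 19.3% of all genes were. Of the 7 pentose phosphate genes, Rpe was called higher in both genotypes (1.33 and 1.32), and G6pdx, the entry enzyme, fell by 0.50 in WT and by 0.21 in KO. Of 20 further genes of the HIF pathway, 17 were tested, with 4 called higher and 2 lower in WT, where 19.1% and 18.7% of all genes were, and 7 higher and 3 lower in KO, where 17.7% and 19.3% were. The WT share was thus near that of all genes. Ak4, a mitochondrial adenylate kinase, rose by 6.52 in WT and 7.26 in KO, while Mxi1, a Myc antagonist, fell by 2.25 and 2.19. Arnt, the partner of Hif1a, stood at -0.08 in WT (edgeR adjusted p = 0.313) and -0.04 in KO (edgeR adjusted p = 0.652).

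In the genotype comparisons, 0 further glycolysis or pentose phosphate genes were called with edgeR in UT or LPS-treated cells, and at an unadjusted p below 0.05 there were 5 of 16 and 5 of 7 in UT cells, where 34.3% of all genes were, and 4 of 16 and 2 of 7 after LPS, where 28.5% were. At any fold after LPS, 4 of 16 further glycolysis genes, 1 of 7 pentose phosphate genes and 6 of 17 further HIF pathway genes were higher in KO, where 7.78% of all genes were, and 1 of the last list was lower, where 6.54% were. Loxl2, a lysyl oxidase that HIF1 can induce, was called higher in KO with LPS at 1.52 (edgeR adjusted p = 0.0244), at low levels of 0.826 to 1.68 against 0.33 to 0.671 CPM. Bhlhe40, a repressor induced by hypoxia, was lower at -0.67 (edgeR adjusted p = 0.000113).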

How the data were processed

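RNA from 12 BMDM libraries, 3 in each of 4 groups named by the labels, was sequenced after preparation with a stranded total RNA kit that removes ribosomal and globin RNA. The deposited table holds raw counts per gene, which the authors made with HISAT2 2.1.0, SAMtools 1.17 and featureCounts 2.0.0 on GRCm38 after FastQC 0.11.9, as the submitters' processing notes list them. The strand setting and the treatment of reads matching several genes are not given in the sources used here, which makes overlapping and duplicated genes uncertain. Gene identifiers were matched to symbols through GENCODE (48144 of 48526, and the 382 without a match held 0.122% of counts).

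Counts were filtered with filterByExpr (minimum count 10, minimum total 15), scaled by TMM and fitted in edgeR 4.0.16 (quasi-likelihood F test, R 4.3.3) over all 4 groups without a block, with Benjamini-Hochberg adjustment over 15523 genes. Totals of 26154533 to 36423921 counts and a common biological coefficient of variation of 0.0712 set the precision. A change in genotype response was tested as the interaction of genotype and LPS. Values by library are given for Hif1a, Slc2a1, Hk2, Pfkfb3 and Ldha, for the members with the 6 largest called fold changes in each LPS comparison, and for the first 6 by adjusted p in each genotype comparison and in the interaction. Other members are given by counts, ranges and single values. DESeq2 1.42.0, other scalings, filters and gene sets, a replicate block, the compared groups alone, each library left out and the share of counts on short noncoding genes (not protein coding, exons under 500 bases in all) as a covariate were alternatives. Scripts were tested on simulated data. The labels give replicate and batch the same number, so the numbers pair the libraries by label, although the deviations of same-numbered libraries correlated only between -0.0631 and 0.0373 over 18 pairs, none above 0.1. Replicates differed by more than sampling noise (chi-square per degree of freedom at least 3.81), so none was counted as a copy. Members and lists were chosen with earlier results of these data known. Promoter windows came from RefSeq on GRCm38.p6, and figures were drawn with matplotlib 3.10.9.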

Additional observations from a re-analysis of the deposited data

Results flagged for a closer look

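A test of the difference between the LPS responses of the genotypes (the interaction in edgeR, adjusted p below 0.05) singled out 16 members, each given as the KO response minus the WT response on the log2 scale. In glucose uptake and the first step these were Slc2a6 (0.33), Hk1 (0.43) and Hk2 (0.31). In the rest of glycolysis they were Gpi1 (0.26), Pfkfb4 (0.29), Pgk1 (0.31), Eno1 (0.26) and Pkm (0.28). Ldha (0.41) and Slc16a3 (0.45) stood for lactate formation and export, and Egln1 (0.58) for the hydroxylases. Of the HIF1 targets, Pdk1 (0.35), Ero1l (0.47) and P4ha1 (0.34) had the larger response in KO, and Ddit4 (-0.81) and Ankrd37 (-0.86) had the smaller. None of these differences exceeded 1 on the log2 scale. In the same test, 7.32% of all genes tested were higher and 9.5% lower. With the short noncoding share as a covariate, only Slc2a6 and Slc16a3 of the 16 stayed past 0.05. In that fit Ldha was at 0.00 and the signs of Hk1 and Pdk1 turned, while 0.496% of all genes were higher and 0.689% lower.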

How the results depend on the processing

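Of 104 results of single members past the threshold in a comparison, recomputed to 2166 values under the alternatives, 2071 kept their direction and side of the threshold, 92 kept the direction only and 3 reversed. With the short noncoding share as a covariate, 5 members had an adjusted p below 0.05 for KO against WT in UT cells, 12 after LPS and 3 in the interaction, in place of 13, 20 and 16. Over all genes, the shares higher and lower in those fits fell as well, to 3.75% and 1.53%, 4.13% and 4.46%, and 0.496% and 0.689%. The reversed values were Hk1 in UT cells (0.11) and Hk1 (-0.24) and Pdk1 (-0.16) in the interaction. The cause was not tested. For KO against WT in UT cells, DESeq2 called 1 member and leaving out single libraries gave 0 to 1, in each case Adm and the latter without the second WT UT library. Leaving out single libraries gave 26 to 28 calls for LPS in WT, 26 to 27 in KO and 0 for KO against WT with LPS and for the interaction. Of all genes, 36.3% to 37.7%, 35.8% to 36.9%, 0.882% to 1.54% and 1.24% to 3.27% were called in those fits. At any fold the member ranges were 35 to 37, 35 to 36, 10 to 14, 17 to 23 and 13 to 20. The shares of all genes moved as well. With LPS, 35.5% to 37.5% were higher and 33.1% to 35% lower in WT, and 33% to 34.9% and 35.2% to 37.6% in KO. For KO against WT, 11.2% to 15.1% were higher and 6.63% to 12% lower in UT cells, and 4.6% to 11.8% and 3.98% to 8.51% after LPS. The shares in the interaction were 4.93% to 12.5% and 7.03% to 11.6%. In the interaction, Gpi1, Pdk1, Eno1 and Pfkfb4 each lost their place without 1 library, at adjusted p-values between 0.0509 and 0.0641. With the replicate number as a block, Pdk1 for KO against WT in UT cells (0.18, edgeR adjusted p = 0.0834) was the only member result no longer past its threshold. Member counts at any fold with the block were 37, 36, 12, 20 and 16. Of all genes, 37.5% were higher and 34.9% lower with LPS in WT, and 34.7% and 37.3% in KO. For KO against WT they were 12.9% and 8.37% in UT cells, 6.11% and 5.18% after LPS, and 5.84% and 8.17% in the interaction. Upper-quartile scaling moved the median of all genes with LPS by -0.18 in both genotypes and the member medians to 1.41 in WT and 1.32 in KO. Counts limited the lowest members, Adm, Epas1 and Pdk4.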
